A study of Mus musculus with 12 samples.

Results

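The livers examined here had received 2 adenoviruses together, one carrying a short hairpin RNA against the mouse long noncoding RNA mGULL (Ad-shmGULL) and one carrying its human counterpart hGULL (Ad-hGULL). They were compared with livers that had received control virus (Ad-Ctrl, Lac plus the empty pAdV5 virus). The question was which genes were at a different level when the human transcript was supplied after loss of the mouse one. The comparison covered 8 of the 12 libraries of the series, 4 Ad-shmGULL+hGULL and 4 Ad-Ctrl, and 16343 of the 55385 listed features, namely those averaging 1 or more TPM (transcripts scaled to a total of 1000000 in each library) over the 8 libraries. The third group, 4 Ad-shmGULL libraries whose second virus was empty pAdV5, is given beside single results, mostly as a mean. It also enters some figures and the fits of all 3 groups. Its own difference from Ad-Ctrl, which would share the Ad-Ctrl libraries, was not tested here. All mice were 7-week-old wild-type C57BL6 males given a total dose of 500000000 plaque-forming units, and livers were taken 7 days after injection. The route is given as intravitreal for this experiment, while the study's general virus method describes the orbital venous plexus. The human transcript thus came only from a virus, in mice that kept their own mGULL gene. The levels of mGULL and hGULL were not analysed here, so the values do not check the labels by the targeted gene.

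Long noncoding RNAs of the liver can change metabolism by binding proteins that control transcription, and the study placed GULL beside CRTC2, a coactivator of the transcription factor CREB. CREB and CRTC2 drive the genes of glucose production in fasting, while SREBP1 is the transcription factor that turns on fatty acid synthesis after a meal. Enzymes of both programmes, such as Fasn and Pck1, are therefore the usual readouts of this pathway in liver.

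The short hairpins were designed on 4 stretches of mGULL, shown here because they define the knockdown that all rescue livers carry. Which of them the virus carried is not stated in the sources used here. Each 21-base target matched the mouse genome (GRCm39) at 1 place, on the minus strand of chromosome 8, within an exon of the lncRNA gene Gm32006, and each lay inside Gm56837, an lncRNA gene on the other strand. Only the target of shRNA 3 also lay opposite an exon of Gm56837. The targets are written 5′ to 3′.
shRNA 1, chr8:120149823-120149843: ggcttggaatatagagttatc
shRNA 2, chr8:120150011-120150031: acaatgagatgcaatttaaac
shRNA 3, chr8:120150899-120150919: gctcatgacatttgatcttca
shRNA 4, chr8:120150116-120150136: gcccagcactcactatgtatg

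Livers given both viruses differed from Ad-Ctrl livers. Several fatty acid synthesis enzymes, cell cycle genes, p53 target genes, a few xenobiotic cytochromes P450 and the fatty acid transporter Cd36 were higher than in Ad-Ctrl, while many major urinary proteins, a pair of amino acid breakdown enzymes and the gluconeogenic enzyme Pck1 were lower. Elovl6, which elongates newly made fatty acids, rose from a mean of 52.4 to 125 TPM, and Cyp2b9 from 0.802 to 23.6 TPM. Cyp2b9, below 1 TPM in Ad-Ctrl, was tested only because of its level in the rescue livers. Mup7, a secreted pheromone carrier, fell from 1437 to 533 TPM.

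The liver label held in all 8 libraries. Alb, the main plasma protein made by hepatocytes, ranged from 48366 to 73620 TPM in Ad-Ctrl and from 45795 to 55497 TPM in Ad-shmGULL+hGULL, although 2 of the 6 hepatocyte markers, Apoa1 and Tat, passed as lower in the rescue livers. TPM sum to the same total in each library, so the sequencing depth and the precision it gives are unknown, and the spread between libraries is the only error available. Between 15525 and 16727 genes were above 1 TPM. The p-values measure the spread between these libraries, and with 4 against 4 an exact two-sided permutation test cannot go below 0.0286. In whole liver, fewer cells of a type and less RNA per cell cannot be told apart.

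The control libraries differed from each other. The first principal component held 38.7% of the variance. On it Ad-Ctrl replicates 2, 3 and 4 were at 44.5, 25.3 and 13.3 and replicate 1 was at −3.69. The rescue libraries were between −27.4 and −11.7. On the second component, which held 16.2% of the variance, Ad-Ctrl replicate 1 was at −38.0 and the other 7 libraries were between −2.12 and 16.3. Ad-Ctrl replicate 1 had the highest sum of the 11 T and NK cell markers, 86.3 TPM against 28.5 to 44.9 TPM in the other Ad-Ctrl libraries and 46.1 to 59.4 TPM in Ad-shmGULL+hGULL, and none of these markers was at 0 in any library. It was also high in Cd74, the chaperone of MHC class II, at 1172 TPM against 239 to 422 TPM in the other controls, and in stellate cell markers, which summed to 184 TPM against 90.2 to 124 TPM. The part of these cells in the results was not tested, and counts that depend on this library are given below with and without it.

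A gene was counted where the log2 fold change, on the log2(TPM + 1) scale, was beyond 0.5 and the unadjusted p of a limma fit was under 0.05, which is the threshold of the study. By this rule 1181 genes were higher in Ad-shmGULL+hGULL (7.23% of those tested) and 133 were lower (0.814%). Across the 16343 genes the log2 fold changes had a median of 0.17, and 81.7% were positive. After median-of-ratios scaling, which sets each library to the level of its typical gene, this median was −0.003, 49.4% were positive, and 508 genes were higher and 284 lower. The text therefore says that a gene rose or fell only where it passed the threshold with the same sign on both scales. That held for 508 genes that rose (3.11%) and 133 that fell (0.814%). In 293 of those that rose (1.79%) and 50 of those that fell (0.306%) the 4 libraries of one group lay wholly above the 4 of the other on both scales. At an adjusted p under 0.05, 1698 genes passed as deposited (10.4%), 85 after scaling (0.52%) and 81 on both scales. The histogram of fold changes shows the shift between the scales.

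**Figure D1:**
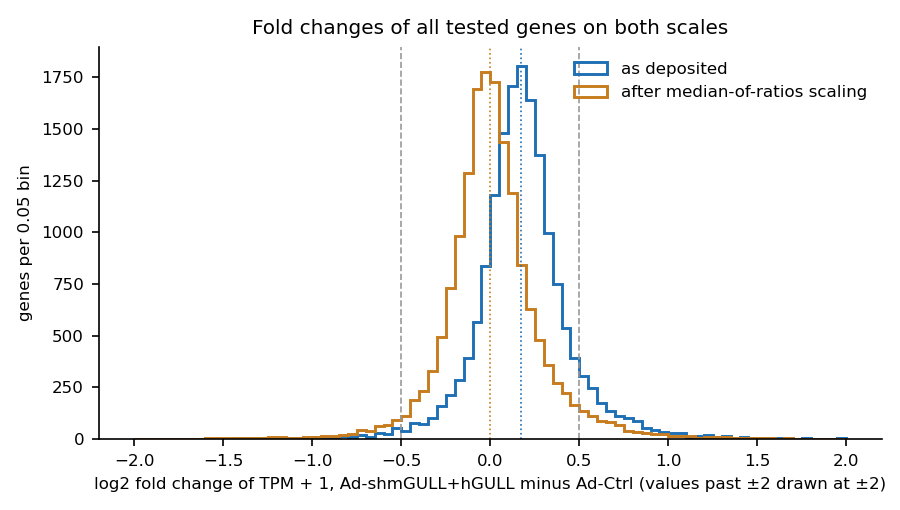
Histogram of log2 fold changes of TPM + 1, Ad-shmGULL+hGULL minus Ad-Ctrl, for 16343 genes, with the number of genes in each 0.05-wide bin on the y axis. The curve of the values as deposited (blue) is centred on 0.17 and that after median-of-ratios scaling (orange) on −0.003, and dashed lines mark the threshold of 0.5 in each direction.

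Protein-coding genes made up 337 of the genes that rose and 58 of those that fell, among 12092 tested. Long noncoding RNAs made up 65 and 11 among 1097 tested, and processed pseudogenes 37 and 17 among 1233. Genes of miRNAs made up 25 and 22 among 353, and snoRNA genes 8 and 10 among 194. The shares over all tested genes were 3.11% and 0.814%, and the counts of each list below are to be read beside them. Without Ad-Ctrl replicate 1, 731 genes passed on both scales upward and 156 downward, and 555 of these were among the 641 found with all libraries.

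Several enzymes of de novo fatty acid synthesis, the route from citrate to long-chain fatty acids, rose in the rescue livers. Of the 14 genes of this list, 6 rose, 8 did not pass on both scales and 0 fell, and the list had a median log2 fold change of 0.56 as deposited and 0.36 after scaling, against 0.17 and −0.003 for all genes. The same number rose without Ad-Ctrl replicate 1. The enzymes are described in the order of the pathway.

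Acly, which splits citrate into the acetyl-CoA used for lipid synthesis, was at 161, 123, 121 and 114 TPM in the 4 Ad-Ctrl libraries and at 295, 351, 241 and 234 TPM in the 4 Ad-shmGULL+hGULL libraries. The groups did not overlap, and Acly rose by a log2 fold change of 1.10 (SE 0.15, adjusted p 0.0162), or 0.90 after scaling. Acaca, the acetyl-CoA carboxylase that commits carbon to fatty acids, was at 29.9, 23.7, 21.7 and 23.1 TPM in Ad-Ctrl and at 50.2, 60.0, 42.5 and 41.8 TPM in Ad-shmGULL+hGULL, again with no overlap. Acaca had a log2 fold change of 0.95 (SE 0.13, adjusted p 0.0162), and 0.75 after scaling.

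Fasn, the synthase that builds palmitate, was at 179, 141, 109.9 and 113 TPM in Ad-Ctrl and at 285, 379, 240.1 and 188 TPM in the rescue livers. Even the lowest rescue library was above the highest control, and the log2 fold change was 0.98 (SE 0.22, adjusted p 0.0324), or 0.78 after scaling (adjusted p 0.104). Elovl6 was at 54.2, 49.3, 50.9 and 55.0 TPM in Ad-Ctrl and at 115, 167, 106 and 114 TPM in Ad-shmGULL+hGULL. Ad-shmGULL+hGULL replicate 2 was the highest, and the controls lay close together. Elovl6 had a log2 fold change of 1.22 (SE 0.13, adjusted p 0.0135), and 1.02 after scaling.

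Me1, the malic enzyme that supplies NADPH to this pathway, rose from 208 ± 60.9 to 475 ± 133 TPM (SD, n = 4). Thrsp, a protein that promotes lipogenic enzyme activity, rose from 293 ± 128 to 654 ± 210.4 TPM (SD, n = 4). Its lowest rescue library, at 494 TPM, was just above Ad-Ctrl replicate 1 at 479 TPM as deposited, and the groups overlapped after scaling. Scd1, the desaturase that makes oleate and the most abundant gene of the list, was at 3234 ± 682 TPM in Ad-Ctrl and 4904 ± 946 TPM in Ad-shmGULL+hGULL (SD, n = 4). Its log2 fold change was 0.60 as deposited and 0.40 after scaling, so it did not pass on both scales.

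For these genes the Ad-shmGULL livers averaged 495 TPM for Acly, 64.4 TPM for Acaca, 531 TPM for Fasn, 232 TPM for Elovl6, 719 TPM for Me1, 1175 TPM for Thrsp and 7262 TPM for Scd1. Each of these means was above that of the rescue livers, which in turn was above that of Ad-Ctrl. The SD of the Ad-shmGULL livers was wide, 252 TPM for Acly and 260.4 TPM for Fasn, and the difference between the rescue and the knockdown was not tested here.

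**Figure D2:**
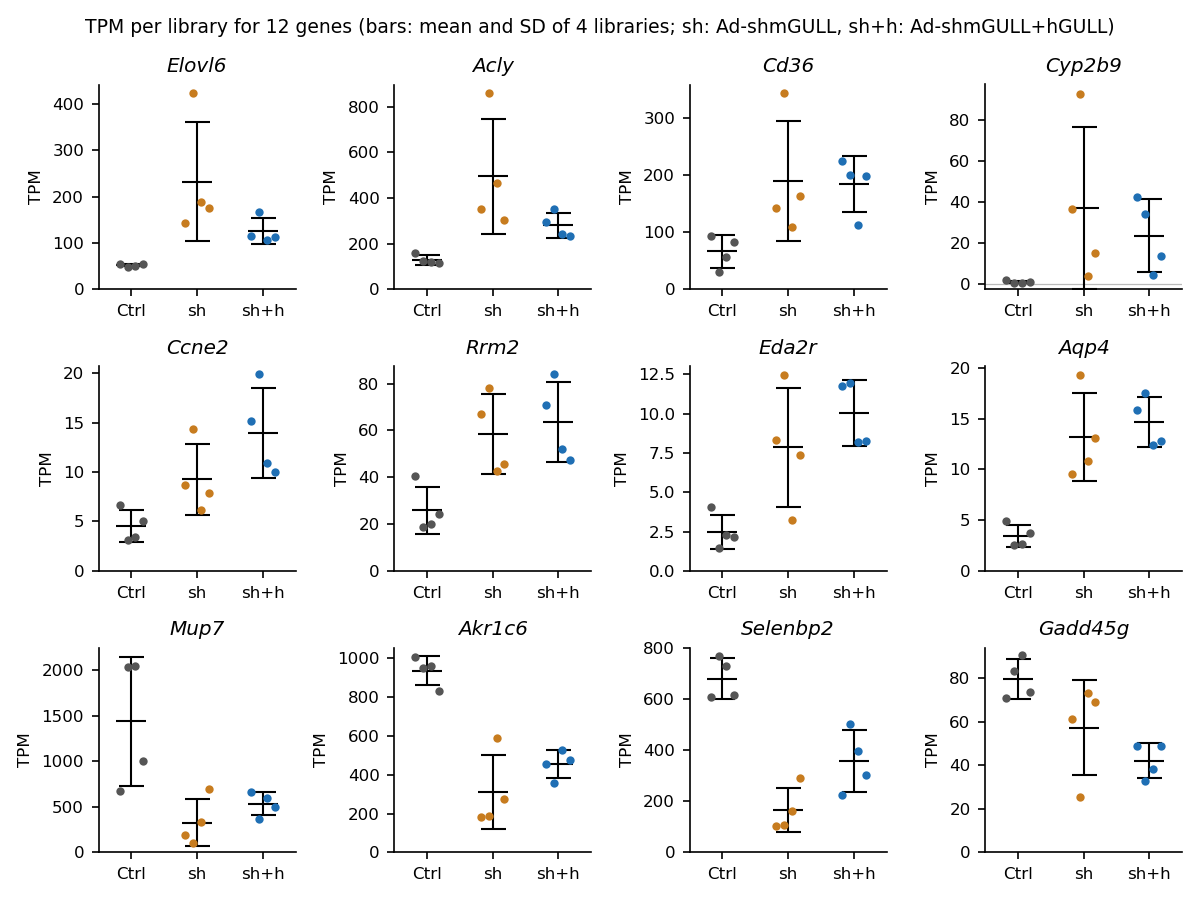
TPM per library (points) of 12 genes in the control, knockdown and rescue groups, with the mean and SD of the 4 libraries as bars and one linear y axis per gene. Elovl6, Acly, Cd36, Cyp2b9, Ccne2, Rrm2, Eda2r and Aqp4 are higher and Mup7, Akr1c6, Selenbp2 and Gadd45g lower in the rescue libraries than in every Ad-Ctrl library.

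The regulators of this programme did not pass on both scales. Srebf1, which encodes SREBP1, was at 110.4, 109, 87.5 and 78.9 TPM in Ad-Ctrl and at 152, 144, 152 and 92.0 TPM in Ad-shmGULL+hGULL. Its groups overlapped through Ad-shmGULL+hGULL replicate 4, and its log2 fold change was 0.46 (SE 0.18, adjusted p 0.108), or 0.27 after scaling. None of the 17 SREBP, ChREBP and LXR regulators passed on both scales, with a list median of 0.13, or −0.06 after scaling. As deposited, 3 of the 17 passed upward, and after scaling 0 did. Their summed level as deposited was 1331 to 1406 TPM in Ad-Ctrl and 1506 to 1666 TPM in Ad-shmGULL+hGULL. These sums did not overlap (exact two-sided permutation p = 0.0286, the smallest that 4 against 4 allows). Of the 17 regulators, 1 passed upward on both scales without Ad-Ctrl replicate 1, without Ad-Ctrl replicate 2 or without Ad-shmGULL+hGULL replicate 4.

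Crtc2 was between 23.2 and 29.7 TPM in Ad-Ctrl and averaged 29.0 ± 2.10 TPM in Ad-shmGULL+hGULL (SD, n = 4), so the groups overlapped. Its log2 fold change was 0.16 as deposited and −0.04 after scaling, with a 95% confidence interval of −0.05 to 0.36 as deposited. Creb1, the transcription factor it coactivates, was at 6.37 ± 0.813 and 7.52 ± 0.832 TPM, a log2 fold change of 0.21, or 0.04 after scaling. None of the 13 genes of the CREB and CRTC axis passed on both scales. Of all tested genes 3.11% rose and 0.814% fell, and at such shares a list this short may well hold no call. Protein levels and nuclear location, by which both SREBP1 and CRTC2 are regulated, are not seen in these values.

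Gluconeogenesis genes did not move together. Pck1, which makes phosphoenolpyruvate and is a classical CREB target, was at 2843, 4450, 4505 and 3869 TPM in Ad-Ctrl and at 1717, 2401, 3049 and 2914 TPM in Ad-shmGULL+hGULL. The groups overlapped at Ad-Ctrl replicate 1, and Pck1 fell by 0.65 on the log2 scale as deposited (SE 0.21, adjusted p 0.0764) and by 0.85 after scaling. The call ended without Ad-shmGULL+hGULL replicate 1, where the change was −0.47. G6pc, which releases free glucose, went the other way, with 505 ± 52.8 TPM in Ad-Ctrl and 734 ± 70.2 TPM in Ad-shmGULL+hGULL (SD, n = 4), a log2 difference of 0.54 as deposited and 0.34 after scaling that did not pass on both scales. The Ad-shmGULL livers averaged 2355 TPM for Pck1 and 970.1 TPM for G6pc. Of the 12 genes of the list, Pck1 alone passed on both scales. The number that fell was 2 without Ad-Ctrl replicate 1, without Ad-Ctrl replicate 2 or without Ad-shmGULL+hGULL replicate 4. It was 0 without Ad-shmGULL+hGULL replicate 1, and 1 gene rose without Ad-shmGULL+hGULL replicate 4.

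Glucose and fructose use by the liver feeds the same lipogenic pathway, and 3 of its 17 genes rose and 0 fell, with a list median of 0.39, or 0.20 after scaling. Between 2 genes (without Ad-shmGULL+hGULL replicate 2) and 5 genes (without Ad-Ctrl replicate 1) rose when single libraries were left out. Pklr, the liver pyruvate kinase, was at 197, 173, 144 and 134 TPM in Ad-Ctrl and at 319, 392, 290.2 and 303 TPM in Ad-shmGULL+hGULL, and its log2 fold change was 1.01 (SE 0.14, adjusted p 0.0162), or 0.81 after scaling. All 4 rescue libraries were well above the highest control. Gpi1, which interconverts glucose and fructose phosphates, rose from 89.4 to 159 TPM. Khk, the fructokinase, was at 376 and 593 TPM, a log2 difference of 0.66 as deposited and 0.46 after scaling, so it did not pass on both scales unless Ad-Ctrl replicate 1 was left out (0.75 and 0.52).

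Of 10 glycogen genes, 2 rose and 0 fell. Gbe1, the branching enzyme, rose from 128 ± 47.9 to 223 ± 27.5 TPM, with Ad-Ctrl replicate 1 at 195 TPM, and Ppp1r3b, the phosphatase subunit that directs glycogen synthesis in liver, rose from 86.9 ± 16.3 to 149.8 ± 13.9 TPM (SD, n = 4). The Ppp1r3b call ended without Ad-Ctrl replicate 2, where the scaled change was 0.491 and 1 gene of the list was left. Ugp2, the most abundant gene of the list, had a log2 difference of 0.32 as deposited and 0.12 after scaling.

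Fatty acid uptake and peroxisomal oxidation also held genes that rose. Cd36, a transporter that brings fatty acids into cells, was at 93.9, 30.1, 57.4 and 83.5 TPM in Ad-Ctrl and at 225, 200.2, 113 and 198 TPM in Ad-shmGULL+hGULL. The groups did not overlap, the log2 fold change was 1.54 (SE 0.35, adjusted p 0.0325), or 1.34 after scaling (adjusted p 0.0816), and the Ad-shmGULL livers averaged 189 TPM. Of the 27 peroxisomal and omega oxidation genes with which Cd36 was listed, 3 rose and 0 fell, the others being Abcd2, a peroxisomal fatty acid transporter, from 8.83 to 18.2 TPM, and Acot3, a peroxisomal thioesterase, from 9.87 to 23.1 TPM. The Acot3 mean rested on Ad-shmGULL+hGULL replicate 4 at 45.1 TPM, and the call ended without it (log2 fold change 0.65) and also without Ad-Ctrl replicate 1 (0.94), Ad-Ctrl replicate 2 or Ad-Ctrl replicate 4. The list had 5 genes that rose without Ad-Ctrl replicate 3 and 2 without Ad-Ctrl replicate 1.

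Mitochondrial oxidation and ketogenesis gave 0 calls in 21 genes on both scales, with a list median of 0.19, or −0.01 after scaling. Cpt1a, the gatekeeper of mitochondrial fatty acid entry, was at 303 ± 23.5 TPM in Ad-Ctrl and 295 ± 5.56 TPM in Ad-shmGULL+hGULL (SD, n = 4). Its log2 fold change of −0.04 had a 95% confidence interval of −0.19 to 0.12, and the Ad-shmGULL livers averaged 238 TPM.

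Of 23 genes of triglyceride synthesis and lipid droplets, 2 rose (8.70%, against 3.11% of all tested genes) and 0 fell. Mogat1, an acyltransferase, rose from 1.50 to 3.42 TPM and Pnpla3, a lipid droplet lipase, from 0.713 to 2.19 TPM. Both are at low levels, and Pnpla3, below 1 TPM on average in Ad-Ctrl, passed the filter only through the rescue livers. The Pnpla3 call ended without Ad-Ctrl replicate 3 or 4 or without Ad-shmGULL+hGULL replicate 1, 2 or 3, with log2 fold changes between 0.62 and 1.07 when single libraries were left out. Dgat2, the last enzyme of the pathway, was at 428 ± 40.3 and 510.1 ± 22.6 TPM (SD, n = 4), a log2 difference of 0.26, or 0.06 after scaling. Gpam, the first enzyme, was at 151 and 242 TPM, with a log2 difference of 0.68 as deposited and 0.48 after scaling. Without Ad-Ctrl replicate 1, Gpam passed on both scales (0.82 and 0.58) and 4 genes of the list rose.

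Among 19 genes of VLDL and apolipoproteins, 1 rose and 1 fell (5.26% each, against 3.11% and 0.814% of all tested genes). Mttp, which loads lipid onto apolipoprotein B, was at 220.4, 189, 219 and 237 TPM in Ad-Ctrl and at 372, 365, 316 and 359.9 TPM in Ad-shmGULL+hGULL. The groups were far apart, with a log2 fold change of 0.71 (SE 0.09, adjusted p 0.0135), but the scaled value of 0.51 was close to the threshold. The call ended without Ad-Ctrl replicate 1, where the scaled change was 0.48, and without Ad-Ctrl replicate 2 or Ad-shmGULL+hGULL replicate 2 or 4. Apoa1, the main protein of HDL, was at 13466, 17421, 12700 and 11478 TPM in Ad-Ctrl and at 7642, 8953, 10783 and 8758 TPM in Ad-shmGULL+hGULL. Every rescue library was below every control. Apoa1 fell by 0.60 on the log2 scale as deposited (adjusted p 0.0572) and by 0.80 after scaling, a call that ended without Ad-Ctrl replicate 2, where the change was −0.48.

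The largest log2 fold changes among the genes that passed on both scales were those of Cyp2b9 and Cyp2a4, cytochromes P450 that metabolize drugs and steroids. Of 38 tested, 7 rose and 2 fell, and the list median was 0.24, or 0.04 after scaling. Between 5 genes (without Ad-shmGULL+hGULL replicate 1) and 10 genes (without Ad-shmGULL+hGULL replicate 3) rose when single libraries were left out, and 0 fell with all 3 groups in the fit. Cyp2b9, a form that is low in male liver, was at 0.497, 0.272 and 0.644 TPM in Ad-Ctrl replicates 2 to 4, below 2 TPM in Ad-Ctrl replicate 1, and at 42.6, 33.9, 4.09 and 13.7 TPM in Ad-shmGULL+hGULL. Its mean in Ad-Ctrl was below 1 TPM, so it passed the filter only through the rescue livers. The groups did not overlap, although the rescue libraries spread over a wide range, and the log2 fold change was 3.42 (SE 0.61, adjusted p 0.0220), or 3.29 after scaling (adjusted p 0.0546). Cyp2a4, a steroid 15-alpha-hydroxylase that is also low in male liver, was at 32.3, 6.58, 4.06 and 16.6 TPM in Ad-Ctrl and at 210.1, 132, 29.6 and 119 TPM in Ad-shmGULL+hGULL. Ad-shmGULL+hGULL replicate 3 was below Ad-Ctrl replicate 1. Its log2 fold change was 3.04 (SE 0.69, adjusted p 0.0332), or 2.86 after scaling (adjusted p 0.0827). None of the 38 had an adjusted p under 0.05 on both scales.

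Cyp2c55 rose from 9.49 ± 4.01 to 27.5 ± 8.52 TPM and Cyp2c38 from 60.6 ± 16.5 to 119.8 ± 18.9 TPM (SD, n = 4), with no overlap for either. Cyp2b10, the best-known target of the receptor CAR, rose from 26.1 ± 16.7 to 48.0 ± 5.99 TPM (SD, n = 4). Cyp2c50 fell from 406 to 279 TPM and Cyp2c54 from 248 to 171 TPM. The calls of these last 3 genes were fragile. That of Cyp2b10 ended without any one of Ad-Ctrl replicates 1, 2 and 4 or Ad-shmGULL+hGULL replicates 1, 2 and 4, with log2 fold changes between 0.77 and 1.39, and Ad-Ctrl replicate 3 at 50.6 TPM lay within the rescue range. Those of Cyp2c50 (−0.41 to −0.69) and Cyp2c54 (−0.38 to −0.73) ended without Ad-Ctrl replicate 2 or 3 or Ad-shmGULL+hGULL replicate 1 or 2, and that of Cyp2c54 also without Ad-Ctrl replicate 4. Cyp2e1, the most abundant of the list, was at 6553 ± 1152 and 6061 ± 1102 TPM (SD, n = 4). The transcripts of Cyp2b9 and Cyp2b10, of almost equal length, are 82.7% identical in the reference. Those of Cyp2a4 (1738 bases) and Cyp2a5 (2032 bases) are 321 edits apart, a count that includes their difference in length. How many reads such related genes share is not seen in TPM, so the levels of Cyp2a4 and Cyp2b9 are uncertain. The Ad-shmGULL livers averaged 37.1 TPM for Cyp2b9 and 178 TPM for Cyp2a4.

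Genes of DNA replication and mitosis formed the list with the most genes that rose. Of 40 tested, 25 rose and 0 fell, with a list median of 0.78 as deposited and 0.60 after scaling. Only 1 of the 40 had an adjusted p under 0.05 on both scales. Between 19 and 32 rose when single libraries were left out, the most without Ad-Ctrl replicate 1 (32) and the fewest without Ad-Ctrl replicate 3 or Ad-shmGULL+hGULL replicate 2 (19). Ad-Ctrl replicate 1 had a summed level of 519 TPM for the list, against 288 to 325 TPM in the other controls and 511 to 785 TPM in Ad-shmGULL+hGULL. The exact permutation test of the summed level gave p = 0.0571.

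Ccne2, the cyclin that starts S phase, was at 6.69, 3.10, 3.45 and 5.00 TPM in Ad-Ctrl and at 15.1, 19.9, 10.9 and 9.98 TPM in Ad-shmGULL+hGULL. The groups did not overlap, and the log2 fold change was 1.43 (SE 0.25, adjusted p 0.0215), or 1.25 after scaling (adjusted p 0.0545). Rrm2, the ribonucleotide reductase subunit that makes deoxynucleotides, was at 40.5, 18.6, 20.1 and 24.4 TPM in Ad-Ctrl and at 70.8, 84.1, 52.1 and 47.5 TPM in Ad-shmGULL+hGULL. Even Ad-Ctrl replicate 1, the highest control, was below all rescue libraries, and the log2 fold change was 1.29 (SE 0.25, adjusted p 0.0257), or 1.10 after scaling (adjusted p 0.0683).

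E2f8, a repressor of the E2F family found in polyploidizing hepatocytes, rose from 8.87 ± 1.66 to 20.6 ± 4.56 TPM, and Cdt1, which licenses replication origins, from 7.22 ± 1.36 to 13.2 ± 2.40 TPM (SD, n = 4). Mcm6, a subunit of the replicative helicase, rose from 17.4 to 40.9 TPM. The mitotic genes Mki67 (13.7 to 25.3 TPM) and Cdk1 (5.47 to 10.6 TPM) also rose. Ad-Ctrl replicate 1 overlapped the rescue libraries on at least 1 scale for Mcm6, Mki67 and Cdk1. Ccnd1, the cyclin that carries growth factor signals into G1, was not among them, at 18.3 ± 3.85 TPM in Ad-Ctrl and 15.7 ± 1.65 TPM in Ad-shmGULL+hGULL (SD, n = 4). For comparison, the Ad-shmGULL livers averaged 9.26 TPM for Ccne2, 58.4 TPM for Rrm2 and 30.5 TPM for Mcm6. The summed level of the list averaged 360 TPM in Ad-Ctrl, 508 TPM in Ad-shmGULL and 625 TPM in Ad-shmGULL+hGULL. The rescue mean was thus farther from Ad-Ctrl than the knockdown mean, and the difference between rescue and knockdown was not tested.

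**Figure D3:**
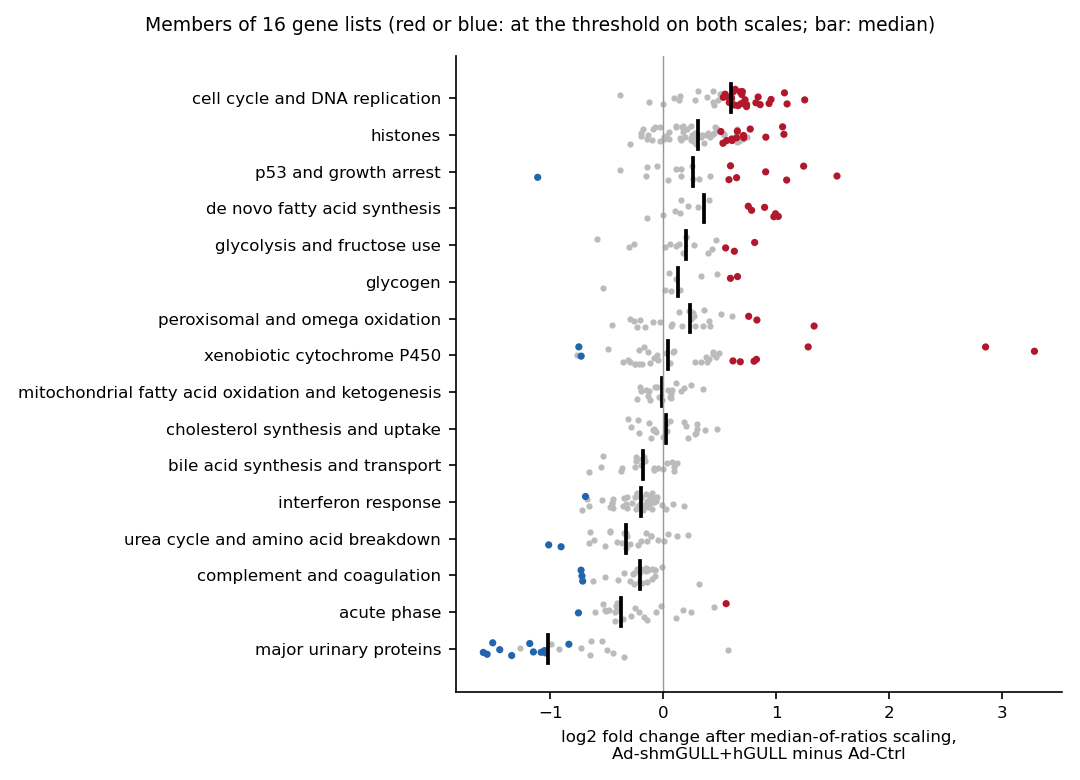
Log2 fold changes after median-of-ratios scaling, Ad-shmGULL+hGULL minus Ad-Ctrl, for the members of 16 gene lists (1 point per gene, black bar for the list median). Red and blue points are genes that rose or fell on both scales. They are most numerous in the cell cycle list (25 of 40, all red), then in the histone list (13 of 70, all red) and the major urinary protein list (11 of 22, all blue), and the rest are spread over other lists.

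The 250 bases before the start sites of these genes were read from RefSeq (GRCm38.p6) and searched on both strands for the letters TTTGGCGC, TTTCCCGC, TTTCGCGC and TTTGCCGC, which are E2F sites. Of the 25 genes that rose, 20 had a promoter entry, with 22 windows in all, and 4 windows held a match, against 3.167% of the 12979 windows of all tested genes and 1.86% of the 32851 windows of all RefSeq promoters. CCAAT, a box common in mitotic promoters, was in 16 of the 22 windows, in 35.38% of those of tested genes and in 33.85% of all. It was also in 5 of 7 windows of the major urinary proteins that fell. Of the windows of called p53 list genes 6 of 10 held it, so the box was not particular to this list. TTTGAA, the cell cycle homology region, was in 7 of the 22, in 11.5% of those of tested genes and in 15.99% of all. The promoters with an E2F match are shown 5′ to 3′ on the strand of the gene, with the matched bases in capitals.
Mcm6 promoter, chr1:128359706-128359955, minus strand: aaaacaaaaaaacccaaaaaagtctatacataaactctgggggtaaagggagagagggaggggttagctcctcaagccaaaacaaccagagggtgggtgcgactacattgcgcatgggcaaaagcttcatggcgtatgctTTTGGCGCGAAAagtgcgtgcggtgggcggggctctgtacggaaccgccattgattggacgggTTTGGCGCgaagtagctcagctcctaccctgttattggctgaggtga
Cdk1 promoter, chr10:69352913-69353162, minus strand: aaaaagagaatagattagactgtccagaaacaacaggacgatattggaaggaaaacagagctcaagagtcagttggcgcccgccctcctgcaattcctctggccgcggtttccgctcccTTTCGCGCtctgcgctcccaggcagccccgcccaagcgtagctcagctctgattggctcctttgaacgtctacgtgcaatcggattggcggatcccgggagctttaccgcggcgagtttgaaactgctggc
E2f7 promoter, chr10:110745189-110745438, plus strand: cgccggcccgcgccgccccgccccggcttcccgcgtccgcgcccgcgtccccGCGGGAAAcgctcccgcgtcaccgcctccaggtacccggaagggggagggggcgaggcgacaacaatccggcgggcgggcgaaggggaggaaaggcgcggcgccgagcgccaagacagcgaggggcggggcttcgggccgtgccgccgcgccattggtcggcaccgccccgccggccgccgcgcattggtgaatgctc
Mcm5 promoter, chr8:75109259-75109508, plus strand: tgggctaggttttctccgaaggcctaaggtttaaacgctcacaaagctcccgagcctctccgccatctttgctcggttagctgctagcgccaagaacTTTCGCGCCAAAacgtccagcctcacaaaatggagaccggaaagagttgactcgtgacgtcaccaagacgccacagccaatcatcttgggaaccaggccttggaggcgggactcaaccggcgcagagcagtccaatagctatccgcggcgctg
In Mcm6 the matches began at −110, −106 and −47 from the start site, the first pair overlapping, in Cdk1 at −131, in E2f7 at −198, and in Mcm5 at −153 and −149, also overlapping. E2f7, a repressor like E2f8, rose from 0.902 to 2.28 TPM, and Mcm5, another helicase subunit, from 7.78 to 13.9 TPM. With an Ad-Ctrl mean below 1 TPM, E2f7 passed the filter only through the rescue livers. The Mcm5 call ended without Ad-Ctrl replicate 4 or Ad-shmGULL+hGULL replicate 2, where its lowest scaled change was 0.46. A match says only that these letters are present.

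The 6 lipogenic genes that rose had 7 windows, of which 0 held TCACNCCAC, a sterol regulatory element (1.063% of the windows of tested genes and 1.053% of all), and 0 held TGACG, the CRE half-site bound by CREB (25.75% and 17.77%). Of these 7, 1 held an E2F match and 3 held CCAAT. An E2F match was in 0 windows of the called p53 list genes and of the major urinary proteins that fell. Sites outside these windows were not searched.

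Of 70 histone genes, a list that includes those whose messages accumulate in S phase, 13 rose and 0 fell, with a list median of 0.49, or 0.30 after scaling. None had an adjusted p under 0.05 on both scales, and the exact permutation test of the summed level gave p = 0.0857. Without Ad-Ctrl replicate 1 the count was 27, and without Ad-shmGULL+hGULL replicate 2 it was 8. H4c1, a core histone gene, rose from 8.64 ± 3.93 to 20.6 ± 4.70 TPM and H2bc8 from 18.7 ± 5.62 to 35.1 ± 5.31 TPM (SD, n = 4). The linker histone H1f10, which is not one of the replication-dependent histones, was within 2.51 to 5.17 TPM in Ad-Ctrl and within 6.54 to 18.7 TPM in Ad-shmGULL+hGULL. H1f2, the most abundant of the list, was at 210.3 and 225 TPM, a log2 difference of 0.10, or −0.10 after scaling. Replication-dependent histone genes are near-identical copies, so how reads were split among them is uncertain.

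p53 is the transcription factor that halts the cell cycle after DNA damage or stress, and 7 of 20 genes of this list rose and 1 fell, with a list median of 0.45, or 0.26 after scaling. Between 6 and 7 rose when single libraries were left out, and 7 without Ad-Ctrl replicate 1. Cdkn1a, the p21 inhibitor of cyclin-dependent kinases, was at 24.3, 8.96, 14.2 and 20.5 TPM in Ad-Ctrl and at 40.8, 30.7 and 39.6 TPM in Ad-shmGULL+hGULL replicates 1, 3 and 4, with replicate 2 higher still. The groups did not overlap, and the log2 fold change was 1.28 (SE 0.28, adjusted p 0.0307), or 1.09 after scaling (adjusted p 0.0746). Eda2r, a death-domain receptor and p53 target, was at 4.04, 1.44, 2.28 and 2.14 TPM in Ad-Ctrl and at 11.8, 11.9, 8.18 and 8.27 TPM in Ad-shmGULL+hGULL. The lowest rescue library was far above the highest control, with a log2 fold change of 1.70 (SE 0.22, adjusted p 0.0162), or 1.54 after scaling.

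Plk2, a kinase induced by p53, was within 6.96 to 8.94 TPM in Ad-Ctrl and within 15.7 to 20.9 TPM in Ad-shmGULL+hGULL, with a log2 fold change of 1.09 (SE 0.11, adjusted p 0.0135). Phlda3, an inhibitor of AKT, rose from 4.04 to 11.9 TPM, Ccng1 from 41.4 to 72.0 TPM and Aen, an exonuclease, from 7.33 to 13.3 TPM. Gadd45g, a stress-inducible growth arrest gene, went the other way, at 70.9, 83.2, 90.9 and 73.7 TPM in Ad-Ctrl and at 48.9, 32.6, 38.2 and 48.8 TPM in Ad-shmGULL+hGULL. All rescue libraries were below all controls, and Gadd45g fell by 0.92 on the log2 scale (SE 0.14, adjusted p 0.0177). Trp53inp1, the most abundant of the list, was at 125 and 138 TPM, a difference of 0.14, or −0.06 after scaling. The Ad-shmGULL livers averaged 41.3 TPM for Cdkn1a and 7.86 TPM for Eda2r. The summed level of the list averaged 456 TPM in Ad-Ctrl, 504 TPM in Ad-shmGULL and 564 TPM in Ad-shmGULL+hGULL. Here too the rescue mean was farther from Ad-Ctrl than the knockdown mean, a difference that was not tested.

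Major urinary proteins are male-biased pheromone carriers that the liver secretes in large amounts under growth hormone control. Of 22 tested genes, 11 fell and 0 rose, with a list median of −0.82 as deposited and −1.02 after scaling. Their sum was 15281 TPM in Ad-Ctrl replicate 1 and 21523 to 31968 TPM in the other controls, and 12286 to 17470 TPM in Ad-shmGULL+hGULL. Ad-Ctrl replicate 1 thus lay among the rescue libraries, and the exact permutation test of the summed level gave p = 0.114. Without that library 16 of the 22 fell, and without Ad-Ctrl replicate 2 or 3 or Ad-shmGULL+hGULL replicate 2 or 3 the number was 8. With all 3 groups in the fit it was 6, and no member had an adjusted p under 0.05 on both scales.

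Mup7 was at 677, 2033, 2041 and 997 TPM in Ad-Ctrl and at 666, 369, 594 and 502 TPM in Ad-shmGULL+hGULL. The lowest control and the highest rescue library were almost level, and Mup7 fell by 1.31 on the log2 scale (SE 0.36, adjusted p 0.0485), or by 1.51 after scaling (adjusted p 0.0972). Mup14 fell from 729 ± 164 to 369 ± 95.6 TPM, Mup19 from 216 ± 84.9 to 79.2 ± 23.2 TPM and Mup5 from 14.8 ± 4.28 to 7.55 ± 2.53 TPM (SD, n = 4). Mup3, the most abundant member, was at 12353 ± 4139 and 8711 ± 1182 TPM (SD, n = 4) and did not pass, with a log2 difference of −0.45. It passed on both scales without Ad-Ctrl replicate 1 (−0.64). Mup genes are near-identical copies, so the level of a single one is uncertain.

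**Figure D4:**
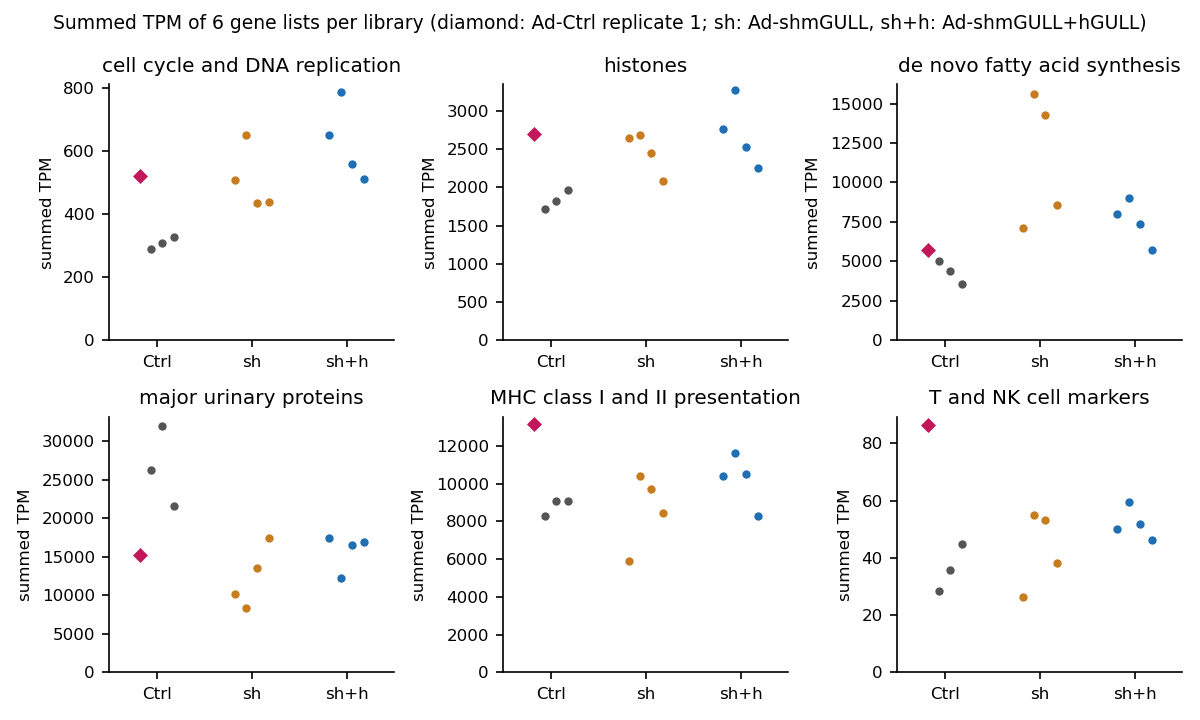
Summed TPM per library of 6 gene lists in the control, knockdown and rescue groups, each on a linear axis from 0. The diamond is Ad-Ctrl replicate 1, which is the highest library for T and NK cell markers (86.3 TPM) and lies among the rescue libraries for the cell cycle list (519 TPM) and the major urinary proteins (15281 TPM).

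A pair of enzymes that break down amino acids, Sds and Tat, fell. Of 27 urea cycle and amino acid genes, 2 fell and 0 rose, with a list median of −0.13, or −0.33 after scaling, and 5 fell without Ad-Ctrl replicate 1. Sds, serine dehydratase, was at 411, 576, 523 and 487 TPM in Ad-Ctrl and at 289, 342, 312 and 276 TPM in Ad-shmGULL+hGULL, with no overlap, and fell by 0.71 on the log2 scale (SE 0.11, adjusted p 0.0181). Tat, tyrosine aminotransferase, fell from 2680 ± 738 to 1488 ± 263 TPM (SD, n = 4), with Ad-Ctrl replicate 1 at 1598 TPM within the rescue range. Cps1, the first enzyme of the urea cycle, was at 3319 and 2739 TPM, a log2 difference of −0.27, or −0.48 after scaling, and did not pass.

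A few secreted plasma proteins passed on both scales. Serpina1e, an antitrypsin form and one of the 20 most abundant genes, was at 5749, 10960, 10031 and 7626 TPM in Ad-Ctrl and at 4541, 4680, 5243 and 5170 TPM in Ad-shmGULL+hGULL, and fell by 0.77 on the log2 scale (SE 0.20, adjusted p 0.0440, or 0.0960 after scaling). The rescue libraries were close together and below every control. Of 29 complement and coagulation genes, 3 fell, namely C8a (504 to 343 TPM), C8b (389 to 269 TPM) and Masp1 (61.2 to 41.7 TPM). All 3 calls sat near the threshold as deposited, at −0.53, −0.51 and −0.52. Each ended without Ad-Ctrl replicate 2 or 3, that of C8a also without Ad-shmGULL+hGULL replicate 1 or 2, that of C8b without replicate 1 or 4 and that of Masp1 without replicate 2, with smallest changes of −0.43, −0.40 and −0.44. The complement and coagulation list had a median of −0.004, or −0.20 after scaling, where 28 of the 29 values were negative, and its summed level averaged 18077 TPM in both groups. The 26 acute phase genes had a median of −0.18, or −0.38 after scaling, where 21 were negative, and 1 rose and 1 fell. Their summed level was 32584 to 36947 TPM in Ad-Ctrl and 29864 to 31822 TPM in Ad-shmGULL+hGULL, with no overlap (exact two-sided permutation p = 0.0286, the smallest that 4 against 4 allows). Saa3, an inflammatory apolipoprotein, rose from 50.7 ± 10.3 to 86.4 ± 18.5 TPM and Itih3, an inter-alpha-trypsin inhibitor heavy chain, fell from 609.9 ± 78.9 to 417 ± 67.7 TPM (SD, n = 4). The Saa3 call ended without Ad-Ctrl replicate 3 or Ad-shmGULL+hGULL replicate 1, with a lowest scaled change of 0.42, and the Itih3 call without Ad-shmGULL+hGULL replicate 1, with −0.45. Igfbp2, a carrier of insulin-like growth factors, fell from 354 to 148 TPM, a call that ended without Ad-Ctrl replicate 2 or 3 or Ad-shmGULL+hGULL replicate 1, 2 or 4, with log2 fold changes between −1.38 and −0.69.

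Several genes outside these pathways were among the most changed. Aqp4, a water channel, was at 4.92, 2.54, 2.66 and 3.69 TPM in Ad-Ctrl and at 15.8, 17.5, 12.4 and 12.7 TPM in Ad-shmGULL+hGULL, with a log2 fold change of 1.83 (SE 0.18, adjusted p 0.0135), or 1.66 after scaling. The lowest rescue library was far above the highest control. Enpep, a membrane aminopeptidase, had the smallest adjusted p of all genes. It was at 51.8, 46.5, 46.4 and 45.4 TPM in Ad-Ctrl and at 82.0, 86.3, 82.5 and 81.0 TPM in Ad-shmGULL+hGULL, with a log2 fold change of 0.79 (SE 0.06, adjusted p 0.00471). After scaling the change was 0.59 (adjusted p 0.0175).

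Further genes rose with no overlap between groups. Among those with the largest changes were Ly6d, a surface protein (17.1 to 66.5 TPM), Wfdc2, a secreted protease inhibitor (7.99 to 29.2 TPM), Slc39a5, a zinc transporter (1.77 to 8.95 TPM), and the keratin Krt23 (2.91 to 11.2 TPM). Obp2a, an odorant-binding protein, rose from 15.8 to 50.3 TPM, Cav1, the coat protein of caveolae, from 4.70 to 15.9 TPM, and Raet1e, a ligand of the NK cell receptor NKG2D, from 4.77 to 15.3 TPM. Zfp385a rose from 17.9 ± 1.51 to 34.3 ± 4.46 TPM and the kinase gene Camk2b from 3.35 ± 0.450 to 6.83 ± 0.813 TPM (SD, n = 4), both with an adjusted p under 0.05 on both scales. In the Ad-shmGULL livers the means were 13.2 TPM for Aqp4, 101 TPM for Enpep, 31.3 TPM for Wfdc2 and 35.2 TPM for Zfp385a.

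Akr1c6, a liver hydroxysteroid dehydrogenase, was at 1005, 947, 961 and 830.4 TPM in Ad-Ctrl and at 456, 359.8, 529 and 475 TPM in Ad-shmGULL+hGULL, so that no rescue library reached the lowest control. Akr1c6 fell by 1.05 on the log2 scale (SE 0.12, adjusted p 0.0135), and the Ad-shmGULL livers averaged 309 TPM. Selenbp2, a selenium-binding protein, was at 605, 766, 730.0 and 615 TPM in Ad-Ctrl and at 225, 503, 398 and 303 TPM in Ad-shmGULL+hGULL, fell by 0.98 on the log2 scale, and averaged 166 TPM in Ad-shmGULL. Fam25c fell from 88.9 ± 22.7 to 44.6 ± 2.81 TPM and Sdf2l1, an endoplasmic reticulum chaperone partner, from 62.9 ± 4.29 to 40.0 ± 5.45 TPM (SD, n = 4). Sdf2l1 was the only one of 27 unfolded protein and stress response genes that passed on both scales.

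Interferon-stimulated genes respond to virus. Of 49 tested, 0 rose and 1 fell, Oas1a, an RNA sensor that averaged 11.1 TPM in the rescue livers, whose call ended without Ad-Ctrl replicate 1 (log2 fold change −0.39) or 2 or Ad-shmGULL+hGULL replicate 1, 3 or 4. Without Ad-Ctrl replicate 4, 4 genes of the list fell, and with all 3 groups in the fit 0 did. The list median was 0.00 as deposited and −0.20 after scaling, where 46 of the 49 values were negative and 5 were at the threshold downward. Iigp1, the most abundant member and an interferon-induced GTPase, was at 833 ± 276 TPM in Ad-Ctrl and 856 ± 151 TPM in Ad-shmGULL+hGULL (SD, n = 4), and the Ad-shmGULL livers averaged 387 TPM. Slfn4, a myeloid gene induced by interferon that was not on the list, fell from 9.56 ± 1.54 to 5.21 ± 0.555 TPM (SD, n = 4).

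The share of all TPM taken by the 20 most abundant genes was lower in the rescue livers. It was 29.6%, 32.9%, 29.8% and 30.5% in Ad-Ctrl and 24.5%, 25.9%, 26.6% and 26.2% in Ad-shmGULL+hGULL, a difference of −4.91 percentage points (exact two-sided permutation p = 0.0286, the smallest that 4 against 4 allows). The groups did not overlap. TPM are shares of a fixed total, and the median-of-ratios factors were 0.861 to 1.01 in Ad-Ctrl and 1.05 to 1.12 in Ad-shmGULL+hGULL. The 229 genes that averaged 500 TPM or more had a median log2 fold change of 0.004, or −0.20 after scaling, and 1 rose and 13 fell. Among the 3179 genes of 2 to 5 TPM, 171 rose and 38 fell.

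The largest difference in TPM among those 20 genes was that of Rn7s2. Rn7s2, a 7SL RNA of the signal recognition particle, was at 14415, 21076, 28406 and 18850 TPM in Ad-Ctrl and at 3799, 4907, 3156 and 5860 TPM in Ad-shmGULL+hGULL. No library of either group came near the other group, and Rn7s2 fell by 2.22 on the log2 scale (SE 0.25, adjusted p 0.0135), with 4215 TPM on average in Ad-shmGULL. Rn7s1, the other 7SL gene, was at 2223 ± 305 and 2159 ± 421 TPM (SD, n = 4), a log2 difference of −0.05. The annotated transcripts of both genes are 300 bases long and 100% identical, so reads cannot be assigned to one of them and the split is uncertain. Rn7sk, the 7SK small nuclear RNA, was at 42006 ± 4907 and 49873 ± 1990 TPM (SD, n = 4), a log2 difference of 0.25, or 0.05 after scaling.

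**Figure D5:**
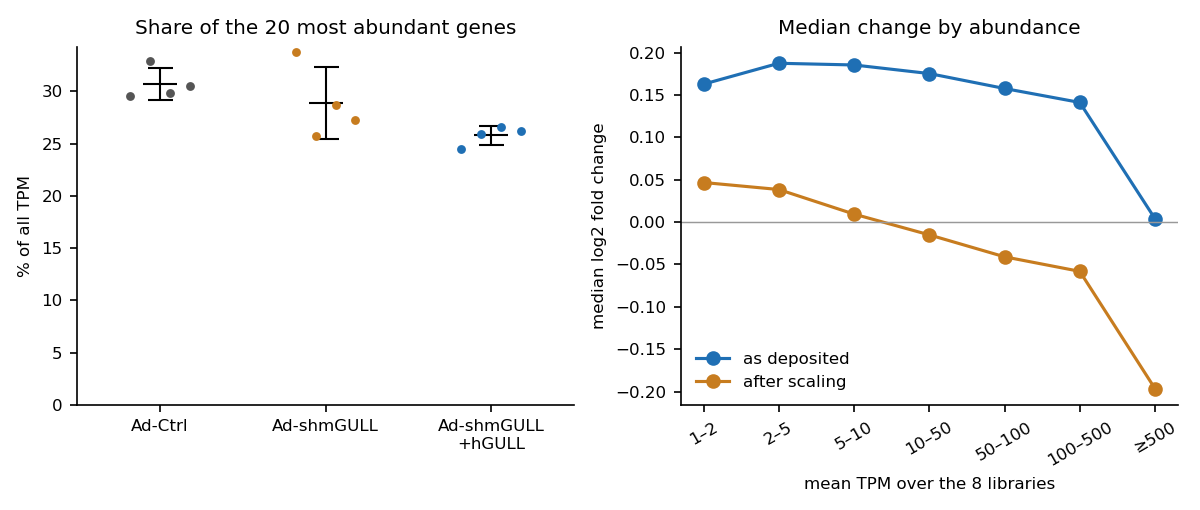
Left, percent of all TPM in the 20 most abundant genes per library, with mean and SD of 4 libraries as bars; all 4 rescue libraries (24.5% to 26.6%) are below all 4 Ad-Ctrl libraries (29.6% to 32.9%). Right, median log2 fold change, Ad-shmGULL+hGULL minus Ad-Ctrl, by mean TPM of the gene, on both scales, with the lowest value at 500 TPM and above (0.004 as deposited, −0.20 after scaling).

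No gene passed on both scales in the lists of cholesterol synthesis and uptake (23 tested), bile acid synthesis and transport (22), MHC class I and II presentation (25), NRF2 antioxidant response (23), insulin signalling (21), autophagy and lysosome (24), hepatocyte transcription factors (20) and cytosolic ribosomal proteins (82). Without Ad-Ctrl replicate 1, 6 MHC genes, 4 NRF2 genes and 1 cholesterol gene rose and 1 bile acid gene fell. These counts do not show that the lists were at the same level in both groups.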

How the data were processed

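Strand-specific libraries of total liver RNA were sequenced by the authors. Per the submitters' processing notes and the study's methods, reads were trimmed with fastp 0.23.2, checked with FastQC 0.11.8, aligned to GRCm38.p6 with HISAT2 2.2.1.0 and counted with featureCounts of Subread 2.0 on GENCODE VM24. The authors deposited TPM per gene, with all replicates in separate columns. TPM keep no depth, so no count model, counting interval or detection limit was possible, and a gene's TPM also depends on all other genes of its library.

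Libraries were grouped by their labels. Of 55385 features, 16343 had a mean of at least 1 TPM over the 8 libraries. Log2(TPM + 1) values, where the pseudocount of 1 understates changes of low genes, were fitted for the 2 groups with limma 3.58.1 in R 4.3.3 (empirical Bayes with a mean-variance trend, Benjamini-Hochberg adjustment over all tested genes), as deposited and after median-of-ratios scaling. The threshold was that of the study, an absolute log2 fold change over 0.5 and an unadjusted p under 0.05; its test tool for these samples was not given in the sources used here. Single values were compared by exact two-sided permutation. The procedure was tested on simulated data. Python 3.11.15, pandas 2.3.3 and matplotlib 3.10.9 were used for lists and figures.

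The members, gene lists and rules were chosen with earlier results of these data known. Named genes were the 10 largest changes in each direction with a mean of at least 5 TPM, groups apart and a call on both scales, up to 15 genes with an adjusted p under 0.05 on both scales, the study's qRT-PCR genes with Crtc2, Creb1 and Srebf1, up to 4 called members and the most abundant member of each list, the 20 most abundant genes and 2 markers of each cell type. Thrsp, Mcm6, Mcm5, E2f7, Mki67, Cdk1, Ccnd1, Cdkn1a, Phlda3, Ccng1, Cyp2b10, Cyp2c50, Cyp2c54, Rn7s1, Cd74, Khk and Gpam were named after their values were seen. One gene of the study's panel and 2 other genes that the rule named are not reported here. Promoters were from RefSeq, matched by symbol. Alternatives were other scalings, pseudocounts, filters and designs, a replicate block, and leaving out each library.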

Additional observations from a re-analysis of the deposited data

Results flagged for a closer look

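Among the named genes, 210 groups of 4 libraries were examined for a library that stood far from the other 3 (the gap to its nearest neighbour over 0.829 of the whole range), and 8 were found, where chance gives about 1 in 20. In Ad-shmGULL+hGULL, replicate 1 was the highest for Ugt1a5, a glucuronosyltransferase, at 62.6 TPM, replicate 2 was the highest for Elovl6 at 167 TPM, replicate 4 was the lowest for Srebf1 at 92.0 TPM, and replicate 4 was the highest for Acot3 at 45.1 TPM. In Ad-Ctrl, replicate 1 was the highest for Mcm5 at 12.1 TPM, replicate 2 was the lowest for Creb1 at 5.16 TPM and the highest for Dgat2 at 488 TPM, and replicate 4 was the highest for Sdf2l1 at 69.3 TPM. Leaving out Ad-shmGULL+hGULL replicate 4 ended the call of Acot3, and leaving out the outlying library did not end that of Elovl6, Mcm5 or Sdf2l1.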

How the results depend on the processing

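The number of genes at the threshold as deposited, 1314, was 792 after median-of-ratios scaling, 774 after quantile normalization, 739 at a mean of at least 5 TPM, 860 for protein-coding genes alone (510 after scaling) and 721 with all 3 groups in a scaled fit. It was 992 to 1859 when single libraries were left out, and 660, 686, 739, 872, 874 and up to 1120 with scaling. At an adjusted p under 0.05 the 1698 genes became 85 after scaling, 143 after quantile normalization, 218 without the 20 most abundant genes, 444 with no filter, 352 with all 3 groups (12 after scaling), 901 without the mean-variance trend, 2758 with array weights and 329 for protein-coding genes after scaling. They were 3 to 3293 when single libraries were left out (0, 4, 5, 10, 20 or 634 with scaling), the fewest without Ad-shmGULL+hGULL replicate 1 and the most without Ad-Ctrl replicate 1. The causes were not tested. The 641 genes on both scales became 409 among protein-coding genes alone and 524 to 887 without single libraries. The difference in the share of the 20 most abundant genes was −5.30 to −4.16 percentage points without single libraries and −4.82 for 100 genes.

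Same-numbered libraries of the groups did not deviate together (correlations of 0.0046, −0.091, −0.012 and 0.103). The labels name no pairing, and such correlations cannot show that the design had none. With the replicate block, 1357 genes passed the threshold (838 after scaling) and 0 had an adjusted p under 0.05 on either scale by limma, with 4845 and 2834 at an unadjusted p under 0.05. Of 3093 values of named genes under alternatives, 2899 kept their side of the threshold, 180 lost the call, 14 gained it and 0 changed sign after a call. Of the 81 named genes called on both scales, 61 kept the call whichever library was left out. Alternatives with protein-coding genes alone, and scaling joined to the 3-group fit, were chosen after seeing the data. Depth is unknown and limits low genes most.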

Other observations

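A few genes of other lists passed on both scales. Of 78 nuclear-encoded oxidative phosphorylation genes, 2 rose (2.56%, below the 3.11% of all tested genes) and 0 fell, with a list median of 0.13, or −0.07 after scaling, and 1 rose with all 3 groups in the fit. Both are isoforms usually low in liver. Cox6b2, a testis form of a cytochrome c oxidase subunit, was at 12.4, 2.42, 5.29 and 5.23 TPM in Ad-Ctrl and at 19.2, 25.6, 14.1 and 12.3 TPM in Ad-shmGULL+hGULL, where Ad-Ctrl replicate 1 lay within the rescue range. Cox6c2 was at 1.95, 1.01, 1.47 and 2.79 TPM and at 2.33, 5.34, 4.01 and 4.36 TPM.

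Of 18 circadian clock and output genes, 2 rose (11.1%, against 3.11% of all tested genes) and 0 fell. Without Ad-shmGULL+hGULL replicate 3, 1 rose. Cry1, a repressor of the clock, rose from 7.07 ± 0.434 to 12.6 ± 1.43 TPM (SD, n = 4). Dbp, a clock output factor and the most abundant gene of the list, was at 118 TPM in both groups.

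Of 65 small nucleolar RNAs, Snord82 rose (1.54%, below the 3.11% of all tested genes). Snord92 and Snord118 fell (3.08%, against 0.814%), and each of these calls ended without any one of 5 libraries. Snord82 was listed at 3.21, 0, 2.43 and 2.30 TPM in Ad-Ctrl and at 7.68, 8.80, 1.89 and 6.54 TPM in Ad-shmGULL+hGULL. Snord92 was listed at 5.29, 4.12, 5.99 and 5.68 TPM and at 3.95, 4.03, 2.34 and 0 TPM. Without Ad-Ctrl replicate 1, 5 genes of this list rose and 0 fell, and 0 fell with all 3 groups in the fit.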
